A study of Ovis aries with 5 samples.

Results

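Clustered distal H3K27ac regions of fetal sheep perirenal fat, which lie in chains of closely spaced peaks away from H3K4me3, are described here. All regions of the joint H3K27ac list on chromosomes 1 to 26 were linked into a chain where the gap between neighbours was at most 12.5 kb, and chains of at least 4 regions were kept. The members were chosen by position from the measured peaks themselves: they are the regions of these chains that were under 12000 bp long and had no region of the joint H3K4me3 list overlapping them or within 5000 bp. This gave 6789 members of 35266 H3K27ac regions in all (34899 on the autosomes), in 1752 of 1871 chains. Because H3K27ac and H3K4me3 peaks chose the members, their number, spacing and H3K27ac strength are descriptions, and no test was made of them.

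Acetylation of lysine 27 on histone H3 (H3K27ac) marks nucleosomes at active promoters and active enhancers, whereas trimethylation of lysine 4 (H3K4me3) is concentrated at active promoters. An H3K27ac region away from H3K4me3 is therefore commonly read as a candidate distal enhancer, and runs of such regions, often joined across short gaps under names such as stitched or super-enhancers, are known near genes that define a cell's identity. The fat around the kidney of a late fetal lamb is a brown fat depot, which makes heat through uncoupled respiration after birth.

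The H3K27ac libraries came from 2 untreated wild-type fetuses of the Merino breed, labelled 132 days of gestation in the sample labels and 130 days post conception in the paper. The same 2 animals gave 1 H3K4me3 library each. Chromatin was cut with micrococcal nuclease, so each region reflects nucleosomal DNA of the whole depot with all of its cell types, and 1 input library pooled from the fetuses was the control for every peak. In such bulk tissue, fewer cells with a mark and less of the mark per cell cannot be told apart. After duplicates were removed the H3K27ac libraries held 144038222 and 145716523 tags, the H3K4me3 libraries 92882463 and 109652707, and the input 26651829. Whether the tissue carried its defining markers could not be checked, since positions of genes on the build of the files, Oar_v3.1, were not used here.

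Most chains were short, and they were largely covered by H3K27ac. A chain spanned a median of 43981 bp (quartiles 33554.5 and 59030 bp, range 9217 to 243051 bp), and its regions covered a median of 63.8% of that span. Of the 1871 chains, 842 held exactly 4 regions, 80 held 10 or more, and the largest held 23. The chains had 10073 regions in all. Of these, 6789 (67.4%) were members, 1906 overlapped H3K4me3, 921 lay within 5000 bp of it without overlap, and 457 were distal but too long. The members made up 19.5% of all autosomal H3K27ac regions and 29.5% of the 23023 short distal regions, and they covered 34.7 Mb. A chain held a median of 4 members (quartiles 2 and 5, at most 18), while 119 chains held 0 members and 552 consisted of members alone.

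**Figure D1:**
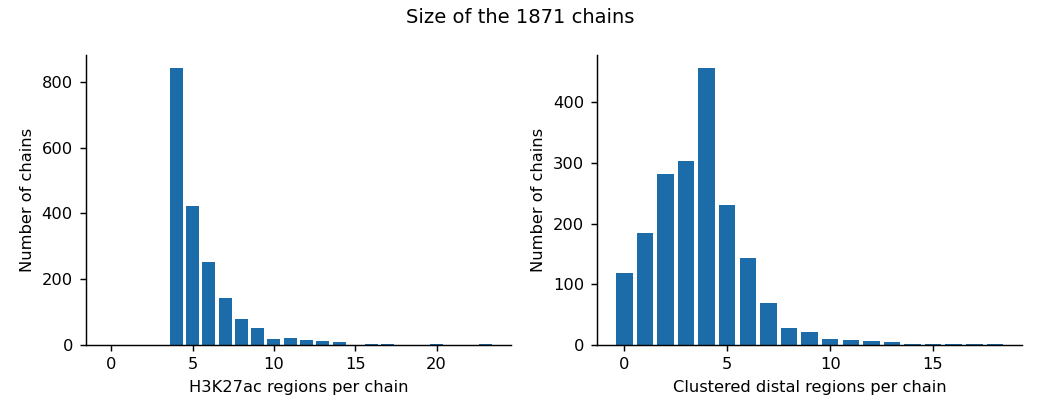
Number of chains (y axis) by the number of H3K27ac regions in the chain (left) and by the number of clustered distal regions in it (right), over all 1871 chains. The left distribution starts at 4 by rule and falls steeply to a single chain of 23 regions, and the right one runs from 119 chains with 0 clustered distal regions to 1 chain with 18.

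Gaps inside chains were mostly far below the limit. The 8202 gaps had a median of 3003 bp, and 2481 of them (30.2%) were at most 1000 bp, so that many neighbours could also be read as 1 broad acetylated domain that the peak caller split. Joining regions at most 1000 bp apart before chaining, an alternative added after the data were seen, left 1118 chains and 3731 members. At the edges of the rule, the longest member was 11990 bp (chr1:191717770-191729760) and the shortest distal chain region kept out for its length was 12001 bp (chr26:25199809-25211810), with fold enrichments of 30.8 and 24.4 for the former and 31.1 and 28.6 for the latter in replicates 1 and 2. The member nearest to H3K4me3 stood 5001 bp from it (chr9:94495415-94502286) and the chain region just too close stood at 5000 bp (chr1:63818254-63820185). The widest gap inside a chain was 12499 bp and the narrowest gap between neighbouring chains 12501 bp.

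In 811 of the 1871 chains no region overlapped the joint H3K4me3 list. H3K4me3 peaks of any FDR in at least 1 library were still found on a region of 703 of these chains (422 in replicate 1, 680 in replicate 2), and 108 chains had none in either library. Such peaks lay on 36.0% of members and 55.9% of all autosomal regions. A chain has at least 4 regions that could carry one, so the count of chains says little by itself. The 811 chains stood a median of 52929 bp from the nearest joint H3K4me3 region (quartiles 22505 and 114320 bp), and 233 of them were over 100 kb away. The most isolated chain with members, chr3:50819233-50847608, had 4 members. Single members lay a median of 39750 bp from H3K4me3, compared with 54573 bp for short distal regions in chains of 2 or 3 and 73194 bp for solitary ones with no neighbour within 12.5 kb. 22.3, 32.6 and 40.5% of these 3 classes lay over 100 kb from H3K4me3. This order is partly set by the rule. A solitary region has no acetylated promoter within 12.5 kb by definition, while a chain may hold one.

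Members were spread unevenly over the chromosomes. Chromosomes 19, 25 and 20 had the most members per Mb, with 4.25, 4.06 and 3.91, and chromosomes 14, 21 and 18 the fewest, with 1.29, 1.72 and 1.79. This order followed that of H3K27ac regions in general only in part. Chromosomes 19 and 20 were also dense in H3K27ac regions, with 16.9 and 18.3 per Mb. Chromosome 11 was the densest, with 18.7, and had 2.83 members per Mb. Chromosome 14 had 12.4 H3K27ac regions per Mb, of which 10.4% were members, while chromosome 6 had fewer regions per Mb (9.99) and a larger share of members among them (18.6%).

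The largest chain, chr3:37081236-37324287, held weak and strong elements side by side, and its strongest and its weakest member were the same in both animals. It held 23 regions over 243051 bp, of which 18 were members, 2 overlapped H3K4me3 and 3 were distal but too long. Its members were enriched over input at their summits, by the value the authors deposited for each peak, with a median of 23.1-fold in replicate 1 and 23.8-fold in replicate 2. The strongest of them, chr3:37197838-37201487, reached 41.3 and 44.2. Its neighbours on either side, chr3:37191893-37195848 and chr3:37202851-37208920, reached 19.9 and 18.1, and 26 and 23.9. The weakest, chr3:37292272-37295067, stood at 17.7 and 17.6. Fold enrichment thus changed by over 2-fold between elements a few kb apart, and these 4 elements differed by much less between the animals. Not all members of the chain did so. The element chr3:37296065-37298809, next to the weakest one, had 18.05 in replicate 1 and 27.82 in replicate 2.

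The chain with the most tags in its members by the mean of both animals, chr6:86166184-86289376, was made of members alone. It ranked 2 in replicate 1 and 1 in replicate 2. All of its 16 regions were distal, and the chain stood 72686 bp from the nearest H3K4me3 region. They held 13684 tags in replicate 1 and 14502 in replicate 2, a mean of 97.3 CPM (tags scaled to 1000000 tags of a library), over 84981 and 88148 bp of called peaks, which is a density of 1.12 and 1.13 RPKM (CPM per kb of called peak). Its longest element, chr6:86176231-86187559, held the most tags in both animals, 2216 and 2289, with fold enrichments of 38.8 and 31.2. By fold enrichment it came first in replicate 1, and chr6:86270561-86279102 did in replicate 2, with 27.7 and 37.4. Elements such as chr6:86218945-86224108 in the middle of the chain had 18.3 and 19.6.

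The chain chr7:447538-644203 came next by members, with 17 of 20 regions. Its members held 15100 and 12025 tags over 88860 and 73833 bp of called peaks, with a density of 1.18 and 1.12 RPKM. The chain chr16:35621054-35835738 had 15 members of 20 regions, with 12736 and 12243 tags. The chain chr1:161446016-161583687 had 15 of 17, with 12230 and 11903 tags, and chr3:85599826-85816928 had 14 of 20, with 9558 and 9098 tags. Each of 4 further chains had 13 members, namely chr6:60198215-60347515 (13018 and 12101 tags), chr3:43833167-43973223 (12077 and 11243), chr5:99163914-99267058 (9290 and 9809) and chr15:75906426-76044928 (9853 and 6529). In the last 3 of these chains every region was a member. The 5 chains with the highest CPM in their members were those on chromosome 6 (both), chromosome 7, chromosome 16 and chromosome 1.

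**Figure D2:**
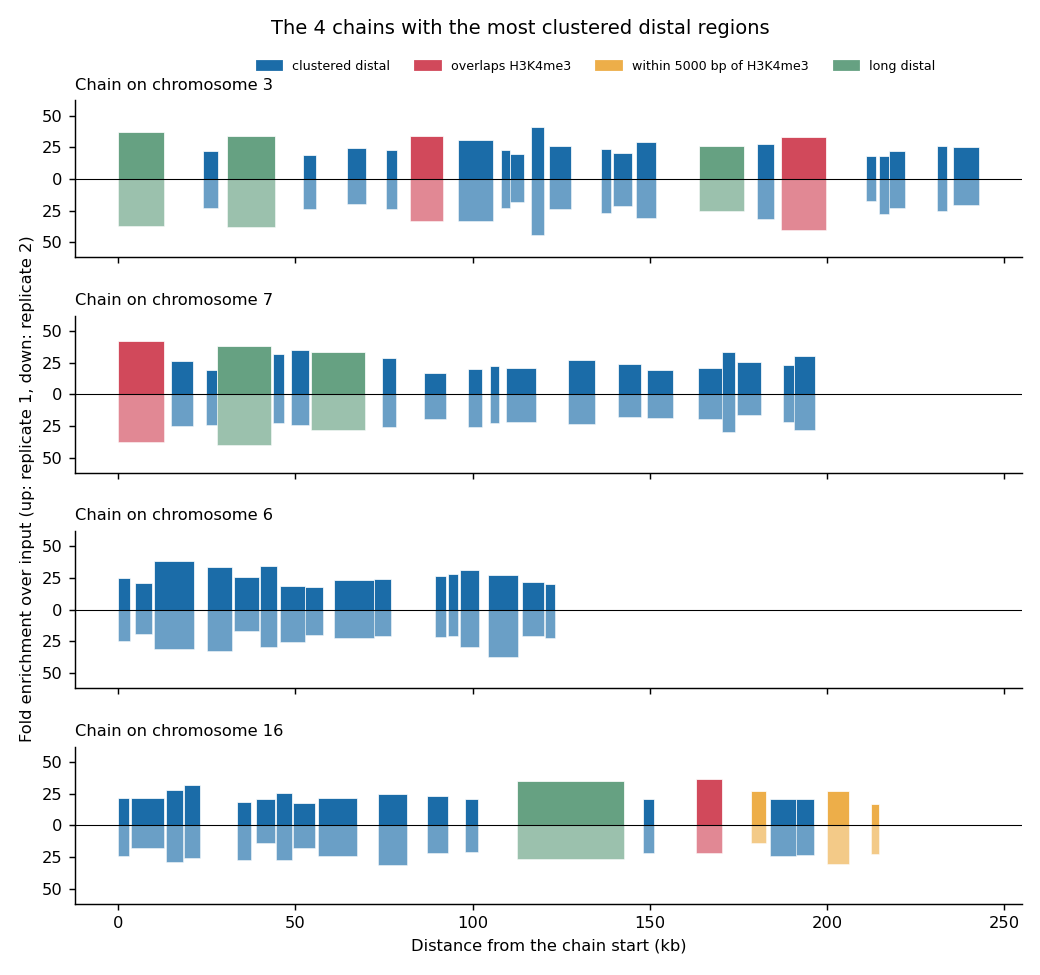
Regions of the 4 chains with the most clustered distal regions, by distance from the chain start in kb (x axis). Bar width is the length of a region, and bar height its fold enrichment over input, upward for replicate 1 and downward for replicate 2, with colours for the 4 kinds of chain region. Tall and short elements stand side by side in each chain, as in the chromosome 3 chain, where the tallest clustered distal region reached 41.3 and 44.2 and the lowest 17.7 and 17.6.

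Clustered members were scarcely more enriched at their summits than distal regions elsewhere. The median fold enrichment of the 6789 members was 24.3 in replicate 1 and 24.4 in replicate 2, over ranges of 12.9 to 48.5 and 13.3 to 53.4. It was 24.1 and 24.3 in the 8109 short distal regions in chains of 2 or 3, and 23.8 and 24.3 in the 8125 solitary ones. Members exceeded solitary regions by 0.48 and 0.10, a mean difference of 0.29 ± 0.27 (SD, n = 2 animals), which is close to the spread between the animals. By length the mean difference was -0.075 below 3 kb (0.15 and -0.30 in replicates 1 and 2), 0.08 from 3 to 5 kb, 0.195 from 5 to 8 kb (0.48 and -0.09) and 0.775 from 8 to 12 kb (0.80 and 0.75). In 24.3 and 25.2% of the members the fold enrichment was a whole multiple of 0.485 (within 0.006), so a single step of this value was as large as the difference. With peaks rebuilt at an FDR of at most 5%, which left 1024 members, the difference turned to -0.31. It was negative in this setting only, and it was 0.79 with no FDR limit and 0.6675 without a limit on length. By contrast, the 1906 chain regions that overlapped H3K4me3 stood at 32.2 and 30.1, and the 457 long distal chain regions at 31.4 and 30.2. All autosomal regions together had 25.7 and 25.5.

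Tag density in called peaks gave a small difference in the same order throughout. The density of tags in called peaks had medians of 1.03 and 1.01 in members, 1.01 and 1.00 in chains of 2 or 3, and 0.989 and 0.989 RPKM in solitary regions. Members thus stood 3.71% above solitary regions in replicate 1 and 2.34% in replicate 2. Members were also longer, with a median of 4602 bp against 4262 and 3913 bp, and density rose with length. The order of the 3 classes was nevertheless the same in each of 4 length classes and in both animals. Below 3 kb the medians were 0.970, 0.965 and 0.953 in replicate 1 and 0.977, 0.969 and 0.968 in replicate 2. From 8 to 12 kb they were 1.11, 1.09 and 1.07 in replicate 1 and 1.08, 1.06 and 1.05 in replicate 2. These differences are small beside the spread among members, 90% of which lay between 0.831 and 1.30 in replicate 1 and between 0.830 and 1.29 in replicate 2. Two-sided exact permutation over 2 animals cannot give a p below 0.5, so no test was made.

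**Figure D3:**
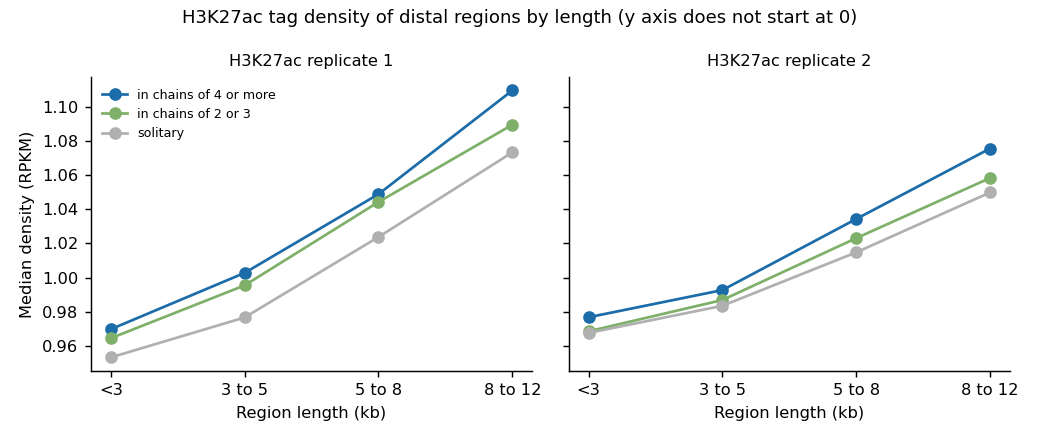
Median H3K27ac density in RPKM (tags per kb of called peak, scaled to 1000000 tags of the library; y axis, which does not start at 0) by region length in kb (x axis), for short distal regions in chains of 4 or more, in chains of 2 or 3 and solitary, with 1 panel for each replicate. The line for chains of 4 or more is the highest at each length in both panels, by 1.73 to 3.38% over solitary regions in replicate 1 and by 0.936 to 2.45% in replicate 2.

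Median fold enrichment of members differed little with chain size or with the presence of a promoter mark in the chain. Members of chains of 4 regions had median fold enrichments of 24.2 and 24.3, and those of chains of 12 or more had 24.8 and 24.2. In chains with an H3K4me3 region they stood at 24.3 and 24.6 (2920 members), and in chains without one at 24.3 and 24.3 (3869 members). Members at the end of a chain had 24.1 and 24.2, and those inside it had 24.6 and 24.6. Length rose more clearly with chain size, from a median of 4474 bp in chains of 4 to 4866 bp in chains of 12 or more.

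Strong and weak elements were mixed within chains. In the 1285 chains with at least 3 members (6040 members), the chain accounted for 4.36 and 5.63% of the variance of log2 fold enrichment in replicates 1 and 2, for 5.90 and 5.92% of that of log2 RPKM, and for 3.87% of that of log2 length. Neighbouring members had nearly unrelated strength, with a Pearson r of 0.064 and 0.069 for log2 fold enrichment in the 2 replicates over 5037 neighbouring pairs. These pairs share a library, a chain and often a member, so r is a description.

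The strongest members, ranked by the lower of the 2 libraries, lay in chains of ordinary size. The first, chr7:80941895-80949362, had fold enrichments of 48.5 and 46.1 with 1373 and 1239 tags, in a chain of 4 regions, 366681 bp from H3K4me3. The next were chr21:27519857-27523964 with 46.1 and 47.6, chr20:26575344-26578456 with 44.7 and 46.6, chr12:69426936-69434038 with 45.4 and 44.5, and chr9:76637518-76642157 with 44.2 and 47.1. The last of these stood in a chain of 8 regions, the others in chains of 4 or 5. The weakest members, chr1:197357242-197363519 (13.8 and 14.4), chr1:231634298-231642002 (13.1 and 15.0) and chr16:22761995-22767805 (15.0 and 15.1), were in chains of 6 or 7 regions and were 5810 to 7704 bp long, with between 720 and 1290 tags in each library.

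Each member was found in both animals, as the joint list requires, and 6220 of the 6789 (91.6%) consisted of a single peak in each library. Fold enrichment was higher in replicate 1 for 3285 members and in replicate 2 for 3393. Across members, Pearson r between the animals was 0.67 for log2 fold enrichment and 0.71 for log2 RPKM. The same value for fold enrichment was 0.61 across solitary regions. The summit of a member lay at a median of 170 bp from its counterpart in the other animal, and 52.4% of the summits were within 200 bp, about the length of a nucleosome with its linker. Summit distance was 169 bp in chains of 2 or 3 and 146 bp in solitary regions, and it grew with length in each class, from 112 bp for members below 3 kb to 341 bp for those from 8 to 12 kb.

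Between the animals, some members differed in the tags and the length of their called peaks, about as often as other short distal regions did. Density was taken only inside called peaks, whose length could differ between the animals. That it differed little between animals is therefore no sign of equal acetylation. CPM of called peaks was over 2-fold higher in replicate 1 for 282 members and in replicate 2 for 134, together 6.13% of members, where 4.92 and 1.89% of all autosomal regions passed the same limits in replicates 1 and 2. In 318 of them the called length was also over 2-fold apart, and across members the log2 ratios of tags and of called length had a Pearson r of 0.95. Per kb of called peak, 0 members were over 2-fold apart and 5 were over 1.5-fold apart, beside 0.138% of all autosomal regions. The largest of these differences was at chr19:15085524-15095878, with 2070 and 204 tags, fold enrichments of 30.8 and 22.3 and 1.41 and 0.854 RPKM. In the opposite direction, chr3:125060219-125064820 had 490 and 997 tags, fold enrichments of 17.1 and 30.8 and 0.907 and 1.49 RPKM.

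Summed over a chain, tags followed the same pattern. Among chains with at least 4 members, the ratio of CPM in replicate 2 to replicate 1 had a median of 0.972 and quartiles of 0.843 and 1.11. The lowest ratio was 0.397, at chr1:103675980-103720332, where 5 members held 4093 and 1643 tags. Called length there was 27713 and 11799 bp, and density 1.03 and 0.956 RPKM. The chain chr15:75906426-76044928 ranked 10 by tags in replicate 1 and 55 in replicate 2. Its ratio of 0.655 went with a called length of 67957 and 46344 bp and a density of 1.01 and 0.967. The highest ratio was 1.89, at chr16:34387620-34426833, where both called length (16847 and 26556 bp) and density (0.952 and 1.14) were higher in replicate 2. Ranked by tags of members, 14 chains were among the first 20 in both animals, and 78 among the first 100.

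**Figure D4:**
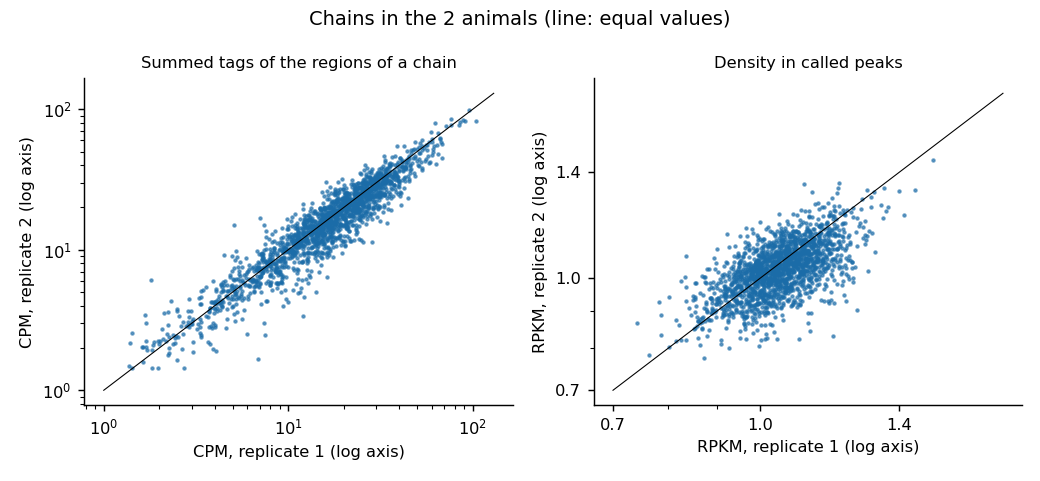
Each point is 1 of the 1752 chains with clustered distal regions, with replicate 1 on the x axis and replicate 2 on the y axis, both logarithmic. The left panel shows summed CPM and the right panel RPKM. Points spread far along the line of equal values on the left, up to a mean of 97.3 CPM, and over a narrow range on the right.

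Unlike strength, the difference between the animals was shared by neighbours. The chain accounted for 26.9% of the variance of the log2 ratio of replicate 2 to replicate 1 in RPKM. Over 5037 neighbouring pairs of members, r of this ratio was 0.30, and it was 0.32 over 3879 pairs in chains of 2 or 3. Among all short distal regions it fell with the gap, from 0.37 at gaps of at most 1 kb to 0.27 at 5 to 12.5 kb, 0.24 at 12.5 to 50 kb and 0.17 beyond 200 kb. The agreement thus extended past the limit of a chain. Which property of the animals or libraries moves with this regional ratio was not tested.

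H3K27me3, the mark of Polycomb repression, was rare on the members and on other distal regions. The joint H3K27me3 list did not enter the choice of members. The sample labels name no H3K27me3 library, so whether the list came from the same fetuses is not known. By the paper, H3K27me3 was sequenced on another instrument than H3K27ac and H3K4me3. The list overlapped 33 of the 6789 members (0.486%, 95% Wilson interval 0.346 to 0.682%), where 1.78% of all autosomal H3K27ac regions overlapped it. The share was 0.654% (0.50 to 0.854%) in chains of 2 or 3 and 1.08% (0.880 to 1.33%) in solitary regions. In the 4 length classes the share of members was 0.655, 0.344, 0.481 and 0.687% from the shortest to the longest, and that of solitary regions was 0.889, 1.02, 1.02 and 2.36%. Over 100 kb from H3K4me3, 3 of 1512 members overlapped H3K27me3 (0.198%, interval 0.0675 to 0.582%) and 33 of 3289 solitary regions did (1.00%, interval 0.715 to 1.41%). At 5 to 20 kb the order differed, with 0.805% of members, 0.628% in chains of 2 or 3 and 1.30% of solitary regions, and their intervals overlapped (0.496 to 1.30% for members, 0.759 to 2.20% for solitary regions). Chain regions with H3K4me3 reached 3.04%. Built from replicate 1 alone the share of members was 0.770%, from replicate 2 alone 0.336%, and without regions near any H3K4me3 peak 0.202%. The shares of the other classes were not computed under these settings, so these 3 values cannot be set against the shares above. The intervals cover counting error over regions, which share chains and are not replicates, and not the spread between animals.

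The 33 members with H3K27me3 lay in 26 chains and resembled the others in strength, with median fold enrichments of 24.0 and 23.6 compared with 24.3 and 24.4. They were partly grouped. In chr12:77008396-77033923, 3 of 4 members overlapped H3K27me3. Both members of chr10:83906259-83948855 did, as did 2 of 3 in chr10:83987849-84019025 and 2 of 6 in chr10:28315925-28378760. On chromosome 25, 2 neighbouring chains, chr25:40984411-41013660 and chr25:41111589-41163977, held 2 such members each.

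**Figure D5:**
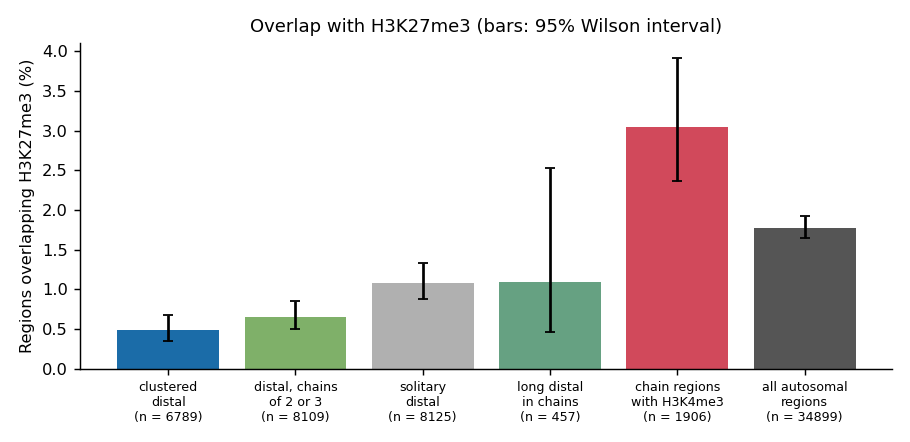
Share of H3K27ac regions that overlap an H3K27me3 region in percent (y axis), by class of region, with 95% Wilson intervals as error bars. The 6789 clustered distal regions have the lowest share, 0.486%, followed by regions in chains of 2 or 3 with 0.654% and solitary regions with 1.08%, and chain regions with H3K4me3 have the highest, 3.04%.

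Weak H3K4me3 peaks, which did not reach the joint list, were also present on some members. A peak of any FDR overlapped 1017 members in replicate 1 (15.0%, interval 14.2 to 15.8%) and 2203 in replicate 2 (32.4%, interval 31.3 to 33.6%), where 38.7 and 53.2% of all autosomal regions had one. In both replicates together the numbers were 776 members (11.4%) and 36% of all autosomal regions, the latter holding the promoters that the rule removed. Chains of 2 or 3 gave 15.6 and 34.3%, and solitary regions 17.3 and 38.3%. The rule had removed regions at or near peaks of FDR at most 1% shared by both libraries, so the remaining peaks were weak by choice. They had a median H3K4me3 fold enrichment of 21.9 and 28.3 compared with 30.5 and 34.8 for all autosomal H3K4me3 peaks, and 118 of 1095 and 176 of 2450 reached an FDR of 1% in their own library. The second library was the deeper one, with more peaks called, and its part in the higher share was not tested. Leaving out every region within 5000 bp of an H3K4me3 peak of any FDR left 2971 members, and the difference in fold enrichment from solitary regions was then 0.0075.

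Some chains lay in regions of the genome that the study lists as selection sweeps between domestic and wild sheep, which gives a name to a few of them. 55 of the 1871 chains overlapped 52 of the 635 sweep regions, and 96 members of 43 chains overlapped a sweep region themselves. This is 1.41% of the members (95% Wilson interval 1.16 to 1.72%), near the 1.3% of all autosomal H3K27ac regions, the 1.15% of chains of 2 or 3 and the 1.23% of solitary regions. Gene names follow the sweep list, as the gene in the sweep region or the closest to it, and they do not say which gene a chain acts on. Among the chains named below, KDR, MARCKS, AIG1, LPP and MEF2C are closest genes that lie outside the sweep region. The same holds for KITLG at chr3:125037172-125094827. The examples were chosen after their values were seen.

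KITLG, FLT1, KDR and EFNA5 encode ligands and receptors that act between cells. KITLG encodes the ligand of the KIT receptor, which acts in pigment, germ and blood cells. The chain chr3:124670145-124765342 at KITLG held 8 members with 4866 and 5516 tags, and chr3:125037172-125094827 held 6 members with 4696 and 5507 tags, among them the member with 17.1-fold and 30.8-fold enrichment named above. FLT1 and KDR encode receptors for vascular endothelial growth factors. The FLT1 chain chr10:31928403-31962942 had 4 members with median fold enrichments of 25.5 and 26.5, and the KDR chain chr6:70476847-70519269 had 5 members with 29.4 and 28.2. EFNA5 encodes an ephrin, a ligand held at the cell surface, and its chain chr5:103873881-103927201 had 4 members with 22.4 and 22.6.

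The chains with the most members among these carried the names MARCKS and AIG1. MARCKS encodes a substrate of protein kinase C that binds actin. Of its chains, chr8:23672911-23753754 consisted of 9 members with 7005 and 8520 tags, and chr8:23824379-23900341 had 5 members with 3761 and 4333 tags. The chain chr8:67183196-67353079, nearest to AIG1, had 9 members among 14 regions, with 7613 and 8012 tags. DOCK9 and RAPGEF4 both encode exchange factors for small GTPases, RAPGEF4 being activated by cyclic AMP. Each of their chains, chr10:75157924-75222442 and chr2:135903092-135997933, had 7 members, with median fold enrichments of 27.3 and 23.3 at DOCK9 and 27.9 and 23.9 at RAPGEF4. LPP encodes a LIM domain protein of cell adhesions. Its chain chr1:197343421-197392036 was weak throughout, with medians of 18.6 and 16.8 over 6 members, and included the weakest member of all by the higher library.

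MEF2C encodes a transcription factor of muscle and vascular cells, and its chain chr5:85897562-85928146 had 4 members with 21.8 and 21.8. ARID1B encodes a subunit of the SWI/SNF remodelling complex, and its chain chr8:80211988-80278287 had 6 members with 24.0 and 23.4. NAMPT encodes an enzyme of NAD synthesis that is also released by fat cells. Its chain chr4:47361331-47391954 had 2 members, with 647 and 1341 tags and median fold enrichments of 26.1 and 26.4. Except for LPP, the median fold enrichments of these named chains lay within the range from 21.8 to 29.7.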

How the data were processed

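By the sample labels, ChIP-Seq of H3K27ac and H3K4me3 was done on perirenal fat of 2 fetuses. Each animal gave 1 library of each mark, with a pooled input as control. The paper's methods name more animals for H3K4me3 than the 2 that are labelled. The authors aligned reads to Oar_v3.1 and ran MACS 1.4.2 on each library. Per the file headers, a deposited peak has a 1-based position, the count of its tags, a score on a log10 scale of the p-value, the fold enrichment over input (a ratio) and an FDR (a percent). The joint lists that the authors deposited hold positions only. Overlapping peaks of both libraries at an FDR of at most 10% gave 35265 of the 35266 joint H3K27ac regions. The limit of 1% rebuilt the joint H3K4me3 list. The paper's methods state FDR limits lower than these for both marks, and the limits that rebuild the lists were used. The 2 files of H3K27me3 values by library match no labelled sample and were left out.

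Each region was given the summed tags and called length of its peaks in each library within the FDR limit, and the fold enrichment and summit of its strongest peak. CPM scales tags to 1000000 tags left after duplicates were removed, and RPKM is CPM per kb of called peak. Overlap means at least 1 bp, and Wilson intervals are at 95%. The regions named are the 10 chains with most members, the 5 with the highest CPM of members, the 5 strongest and 3 weakest members and those at the edges of the rule, with others chosen after their values were seen. The members and lists were chosen with earlier results of these data known. With 2 animals no test was made. The interval code was checked on simulated data. Sequences and gene positions were not analysed here. Versions were Python 3.11.15 with numpy 2.4.6, pandas 2.3.3 and scipy 1.17.1, and matplotlib 3.10.9 for plots.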

Additional observations from a re-analysis of the deposited data

Results flagged for a closer look

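Strong regions lay inside the chains without being listed. Peaks of both libraries were joined with no FDR limit, which gave 37003 autosomal regions. Of these, 2109 were outside the joint H3K27ac list, since the peak of at least 1 library had an FDR over 10%. 132 of them lay inside 128 of the 1871 chains, and 64 of these 132 stood over 5000 bp from H3K4me3. They had a median length of 7501 bp. Their peaks over the limit, 102 in replicate 1 and 89 in replicate 2, had a median fold enrichment of 40.1 and 39.3 and a median of 1559 and 1418 tags, all above the medians of the members. Unlike members, the 132 regions were not limited by length or by distance to H3K4me3, so the 2 sets are not alike. They entered no comparison above.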

How the results depend on the processing

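Of 80 recomputed values, 45 stayed close to the reported ones, 34 moved and 1 changed sign. With an FDR of at most 5% in both libraries, 345 chains and 1024 members were left. Their median fold enrichment was 24.19, its difference from solitary regions was -0.3075, and tag density stood 1.05% above that of solitary regions. With no FDR limit these values were 24.88, 0.79 and 4.0%. Peaks of 1 library alone gave 3210 to 3408 chains, 14008 to 14021 members, a median of 23.30 to 23.48, a difference of 0.365 to 0.48, 3.47 to 4.35% higher density and 0.3355 to 0.7703% overlap with H3K27me3. A gap of at most 6000 bp gave 904 chains, 2907 members, a median of 24.67, a difference of 0.625 and 0.2752% overlap with H3K27me3, and a gap of at most 25000 bp gave 12140 members. Asking for 3 regions gave 3540 chains, and asking for 6 gave 605 chains and 3254 members. Leaving out regions near any H3K4me3 peak gave 2971 members, a median of 23.02, a difference of 0.0075 and 0.202% overlap with H3K27me3. Without a limit on length the median was 24.74 and the difference 0.6675. Joining regions at most 1000 bp apart first, chosen after seeing the data, gave 1118 chains, 3731 members and a median of 24.44. The density comparison was also added after the data were seen, and members were denser than solitary regions under each of the 14 settings. The cause of these shifts was not tested, beyond the fewer or more regions that each setting lists. Of the 1871 chains, 97.4 and 96.7% overlapped a chain built from replicate 1 or replicate 2 alone. Each joint region already holds a peak of both libraries, so this overlap was largely fixed in advance. It is no measure of agreement between the animals.

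With 2 animals, the spread is known only from 1 difference, and the input, which is shallower than the other libraries, sets the fold enrichment of each peak in both. Tags outside called peaks are not in the lists, so a lower sum in 1 animal can mean a shorter call.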
